A study of Mus musculus with 6 samples.

Results

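Mitochondrial ribosomal proteins, the protein parts of the ribosome that works inside mitochondria, were followed in 3T3-L1 adipocytes with and without forced expression of uncoupling protein 1 (UCP1). Members were the genes whose symbol in the platform annotation is Mrpl or Mrps followed by a digit, counting only probes with 1 symbol. They came to 72 genes, 44 of the large subunit (Mrpl) and 28 of the small subunit (Mrps), among 18014 genes with 1 symbol on the array. Each gene was read from its brightest probe, the one with the highest mean log2 intensity over the 6 arrays. Another 3 probes, which list Mrps6, Mrps25 or Mrpl32 together with a second gene, were left out. Of 77 ribosomal proteins with such symbols that are known from the structure, 71 were among the members and 6 were not analysed here (Mrpl9, Mrpl22, Mrpl32, Mrpl41, Mrpl52 and Mrps18c).

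The mitochondrial ribosome translates the few proteins encoded by mitochondrial DNA, which are core subunits of the respiratory chain and of ATP synthase. All of its own proteins are encoded in the nucleus, made in the cytosol and imported, and they assemble on 2 ribosomal RNAs that are made from mitochondrial DNA. Some members have counterparts in bacterial ribosomes, whereas others are found only in mitochondria. UCP1, a carrier of the inner membrane in brown fat, dissipates the proton gradient as heat.

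The samples were 3 arrays of 3T3-L1 adipocytes expressing UCP1 (UCP1 1 to 3) and 3 arrays of 3T3-L1 adipocytes with only the Tet-off plasmid (control 1 to 3), all harvested 10 days after differentiation with an adipogenic cocktail according to the extract protocol, where the series' design text speaks only of growth to confluence. 3T3-L1 is a mouse preadipocyte line. The UCP1 array titles end in a digit whose meaning is not defined, so the groups rest on the source label. The labels do not say how UCP1 was introduced, whether the lines were single clones, or whether each array had its own culture. The p-values therefore reflect the spread among arrays, and that spread may be technical. Total RNA was hybridised to 1-colour CodeLink mouse arrays, and deposited values are linear spot intensities in which every array has a median near 1 (1.04 to 1.05). They cannot show a change in total RNA, and in such bulk samples fewer cells of a type and less RNA per cell cannot be told apart.

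Ucp1 itself had intensities of 2.34, 2.02 and 1.54 on the UCP1 arrays, against 0.222, 0.232 and 0.278 on the control arrays. The difference was 3.00 ± 0.234 on the log2 scale (SE, limma, adjusted p = 0.00013), although an exact permutation test over 3 against 3 arrays cannot go below its p of 0.1. Most adipocyte markers were bright in both groups. Adipoq had means of 818 in UCP1 and 880 in controls, and Fabp4 had 693 in UCP1 and 722 in controls. Lipe was dim, at 0.182 in UCP1 and 0.151 in controls. Adipoq gave the highest value of any probe on UCP1 2 (921), and whether such readings were saturated was not tested. Of 8 measured adipocyte markers 1 was called, Slc2a4, which was lower. Summed intensity of these markers, which rests mainly on Adipoq, Lpl, Fabp4 and Retn, spanned 2816 to 3886 on UCP1 arrays and 3420 to 3923 on control arrays. Of 8 preadipocyte and fibroblast markers 4 were called higher in UCP1 (Pdgfra, Thy1, Lum and Dcn), where 1.13% of all genes were. In all, 6 of the 8 lay above 0 and 2 below, with a median log2 difference (UCP1 minus control) of 0.60. Their summed intensities were 790 to 1023 in UCP1 and 729 to 979 in controls. These sums rest mainly on Col3a1, which had means of 595 in UCP1 and 622 in controls. The part of these marker differences in the results that follow was not tested. Of the 4 measured macrophage markers Lyz2 was higher in UCP1, at 3.04 against 1.08 in controls, while Adgre1, Itgam and Ptprc had means between 0.116 and 0.231 in either group. None of 5 endothelial or 6 skeletal muscle markers was called, with 1 of these (Des, lower) at an unadjusted p under 0.05.

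The upstream sequences of the 3 members with the smallest adjusted p (Mrps11, Mrpl45 and Mrps2) are printed here because the results below turn on these genes. Each window runs 5′ to 3′ on the gene's own strand from 250 bases before its start to 50 after it, taken from RefSeq with build GRCm38.p6. Mrps11 lies on the plus strand at chr7:78782881-78783180, Mrpl45 on the plus strand at chr11:97315466-97315765 and Mrps2 on the plus strand at chr2:28467816-28468115. Capitals mark matches to motifs described further on.
Mrps11: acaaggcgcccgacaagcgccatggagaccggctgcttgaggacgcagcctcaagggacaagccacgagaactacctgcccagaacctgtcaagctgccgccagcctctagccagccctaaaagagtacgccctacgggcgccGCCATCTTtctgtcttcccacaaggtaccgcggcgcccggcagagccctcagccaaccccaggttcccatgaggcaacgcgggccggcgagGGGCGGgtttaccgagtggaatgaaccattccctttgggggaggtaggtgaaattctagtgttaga
Mrpl45: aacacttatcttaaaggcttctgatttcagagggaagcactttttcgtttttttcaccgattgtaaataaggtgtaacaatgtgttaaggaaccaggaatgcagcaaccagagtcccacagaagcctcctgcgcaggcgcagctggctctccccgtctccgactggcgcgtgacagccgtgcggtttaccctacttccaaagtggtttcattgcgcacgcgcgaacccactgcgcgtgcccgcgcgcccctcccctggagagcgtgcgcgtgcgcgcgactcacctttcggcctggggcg
Mrps2: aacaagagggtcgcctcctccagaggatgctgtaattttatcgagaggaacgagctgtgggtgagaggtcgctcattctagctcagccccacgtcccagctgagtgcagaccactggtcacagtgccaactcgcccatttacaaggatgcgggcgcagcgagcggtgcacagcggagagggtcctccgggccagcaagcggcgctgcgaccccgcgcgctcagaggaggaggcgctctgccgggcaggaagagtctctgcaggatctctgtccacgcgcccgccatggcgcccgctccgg

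In the deposited scaling, mitochondrial ribosomal protein genes read slightly lower in UCP1 adipocytes than in controls, and few differences were large against the spread. Of 72 members 66 had a log2 difference (UCP1 minus control) below 0, which is 91.7%, where 60.1% of all 18014 genes did. The median difference was -0.26 over the members and -0.08 over all genes. All 72 members lay at or above the median probe, and among all genes that did so 67% were below 0, the median was -0.11 and 4.67% were called lower. Among the brightest genes, with a mean log2 intensity of 6 or more, the median was -0.25 over 28 members and -0.20 over all genes, and 0 of these members were called where 1.42% of all such genes were called lower. In all, 6 members passed the threshold of adjusted p below 0.05 (limma, Benjamini-Hochberg over all 36116 tested probes), all of them lower, or 8.33% of the members where 2.92% of all genes and 2.03% of all probes were called lower. No member was called higher, where 1.13% of all genes were. At an unadjusted p under 0.05, 24 members (33.3%) were lower and 0 higher, where 15.1% of all genes were lower and 5.73% higher, and 22.3% of genes at or above the median probe were lower. The 3 UCP1 arrays all lay below the 3 control arrays in 25 of the 72 members, where 17.1% of all genes were separated in that direction. They all lay above in 0 members, where 8.08% of all genes did, and the groups overlapped in the other 47. Of the 10775 genes at or above the median probe, 2551 were separated downward and 965 upward.

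**Figure D1:**
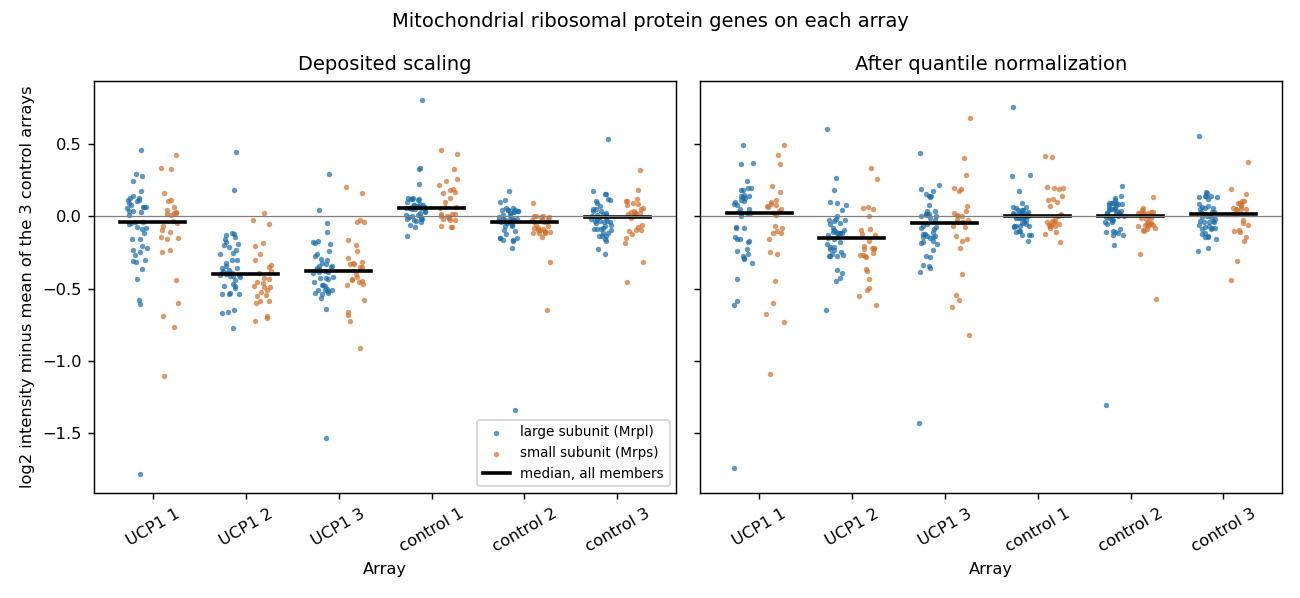
Each point is 1 mitochondrial ribosomal protein gene on 1 array, given as its log2 intensity minus its own mean over the 3 control arrays, with large subunit genes left and small subunit genes right and the median as a black bar. In the deposited scaling UCP1 1 has a median of -0.04, near the controls, while UCP1 2 and UCP1 3 have medians of -0.40 and -0.38, and quantile normalization brings these 3 medians to 0.02, -0.15 and -0.05.

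The 3 UCP1 arrays did not share this shift equally. Relative to each gene's control mean, the median member stood at -0.04 on UCP1 1, -0.40 on UCP1 2 and -0.38 on UCP1 3, against 0.06, -0.04 and -0.01 on control 1, 2 and 3. On UCP1 1, 27 of the 72 members lay below all 3 controls and 19 lay above all 3, whereas 64 members on UCP1 2 and 63 on UCP1 3 lay below all controls. For all genes the shares below all controls were 30.2%, 44.9% and 47.1% on UCP1 1, 2 and 3, the share above all controls on UCP1 1 was 34.8% (26.4% of members), and the corresponding medians were 0.04, -0.11 and -0.13. UCP1 1 was the highest of the 3 UCP1 arrays for 58 members. Within-group spread was accordingly wider among UCP1 arrays, with a median SD of 0.21 on the log2 scale against 0.10 among controls.

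Both subunits showed this order. The median deviations of Mrpl genes on UCP1 1, 2 and 3 were -0.04, -0.39 and -0.38, and those of Mrps genes were -0.04, -0.46 and -0.35. Without UCP1 1 the count of members called lower was 25, where 6.62% of all genes were called lower, and the median difference was -0.40 over the members and -0.14 over all genes. Without UCP1 3 the count was 0, where 0.378% of all genes were called lower, with 14 members lower at an unadjusted p under 0.05. It was 2 without control 1 (0.805% of all genes), 2 without control 2 (1.07%), 4 without control 3 (1.73%) and 5 without UCP1 2 (5.48%). The UCP1 arrays also had a lower 99th percentile of intensity, at 225, 223 and 185, against 279, 255 and 258 on the controls, and the part of this difference in the shift was not tested.

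The scaling between arrays changed the size of the shift and the number of calls. After quantile normalization the members' median was -0.08 (all genes 0.01), 54 of 72 lay below 0 (49% of all genes), and the groups were separated downward in 17 members (12.6% of all genes) and upward in 1 (14.3% of all genes). Then 2 members were called lower, Mrpl45 and Mrps11, where 1.72% of all genes were. Mrps6, the counterpart of bacterial S6, was called higher at 0.39 (limma, adjusted p = 0.044), where 2.27% of all genes were. After cyclic loess normalization the median was -0.09, 57 of 72 lay below 0 (50.4% of all genes), and Mrpl45 and Mrps11 were again the 2 calls, where 1.82% of all genes were called lower.

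**Figure D2:**
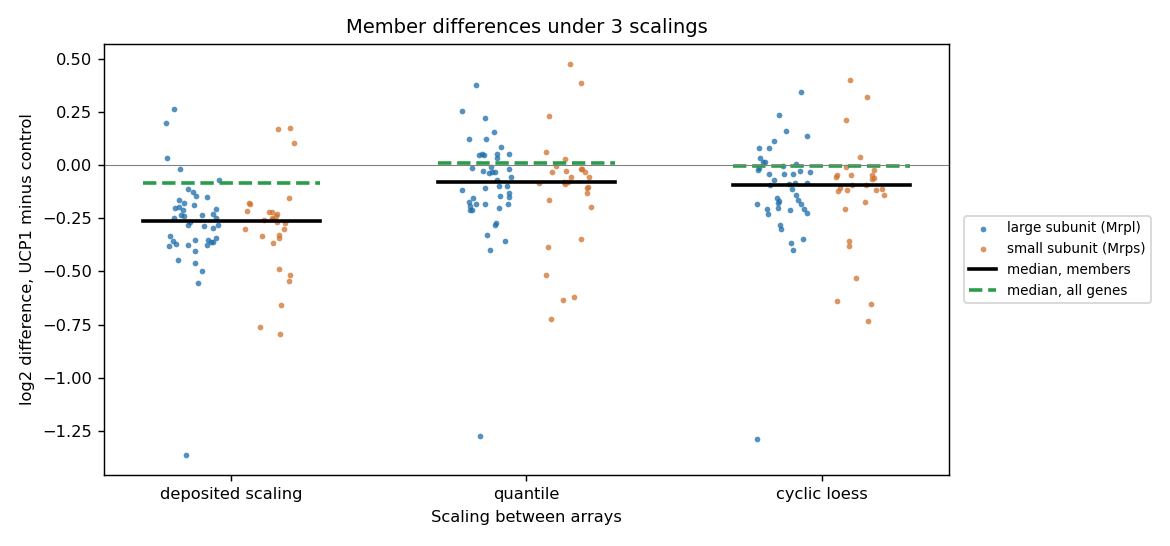
Each point is the log2 difference (UCP1 minus control) of 1 mitochondrial ribosomal protein gene in the deposited scaling, after quantile normalization and after cyclic loess, with large subunit genes left and small subunit genes right. The solid bar is the median of the 72 members (-0.26, -0.08 and -0.09) and the dashed bar the median of all genes (-0.08, 0.01 and -0.00), and the lowest point under each scaling is Mrpl45.

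Among large subunit proteins, Mrpl45 showed the biggest difference of any member under all 3 scalings. Mrpl45 sits beside the tunnel through which the new protein leaves and helps hold the ribosome at the inner membrane. Its intensities were 2.41, 4.85 and 2.88 on the UCP1 arrays, against 10.4, 7.92 and 6.94 on the control arrays. The groups did not overlap, and the highest UCP1 array was UCP1 2, so the array order seen for most members did not hold here. Mrpl45 fell by 1.36 on the log2 scale (SE 0.23, limma, adjusted p = 0.0108), which is 61.1% lower. The difference was -1.27 after quantile normalization (adjusted p = 0.0309). Over 5 of the 6 fits that left out 1 array the adjusted p lay between 0.00043 and 0.041, and without UCP1 3 it was 0.105 with a difference of -1.28.

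Mrpl28 and Mrpl15 were the other large subunit members past the threshold, both counterparts of bacterial proteins of the same number. Mrpl28 read 24.9, 28.4 and 24.2 in UCP1 and 41.1, 36.4 and 36.1 in controls. It fell by 0.55 on the log2 scale (SE 0.12, limma, adjusted p = 0.0332). Mrpl15 read 12.0, 12.2 and 11.2 in UCP1 and 16.7, 16.6 and 15.2 in controls. It fell by 0.46 (SE 0.11, limma, adjusted p = 0.0438). In both genes all 3 UCP1 arrays lay close together and below every control, UCP1 1 included. Neither call held after quantile normalization, at adjusted p = 0.0961 and 0.0916 with differences of -0.40 and -0.33, or without any 1 of the controls or UCP1 3, where their adjusted p spanned 0.0751 to 0.2.

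Small subunit proteins had 3 called members. Mrps11, the counterpart of bacterial S11 on the platform of the subunit, read 2.87, 2.99 and 2.60 in UCP1 and 5.56, 4.50 and 4.63 in controls. The UCP1 arrays formed a tight group below the controls. Mrps11 fell by 0.79 on the log2 scale (SE 0.13, limma, adjusted p = 0.00975), and its difference was -0.72 after quantile normalization (adjusted p = 0.0107). Leaving out 1 array gave adjusted p from 0.00573 to 0.0447, except without UCP1 3, where it was 0.0884.

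Mrps2, the counterpart of bacterial S2, read 7.36, 11.6 and 9.58 in UCP1 and 17.7, 15.2 and 14.7 in controls. It fell by 0.76 on the log2 scale (SE 0.16, limma, adjusted p = 0.0272). The call did not hold after quantile normalization (-0.64, adjusted p = 0.103), nor without control 1 (0.11), control 2 (0.0679) or UCP1 3 (0.142). Mrps21, the counterpart of bacterial S21, read 18.4, 16.6 and 18.3 in UCP1 and 28.0, 23.8 and 23.4 in controls. It fell by 0.49 (SE 0.12, limma, adjusted p = 0.0484), just inside the threshold. Its adjusted p was 0.0897 after quantile normalization, and it was 0.0757 to 0.209 without control 1, 2 or 3 or UCP1 2 or 3. Just outside the threshold lay Mrpl19 (-0.50, adjusted p = 0.0646) and Mrps27 (-0.55, adjusted p = 0.0659), the last a mitochondria-specific protein with pentatricopeptide repeats.

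**Figure D3:**
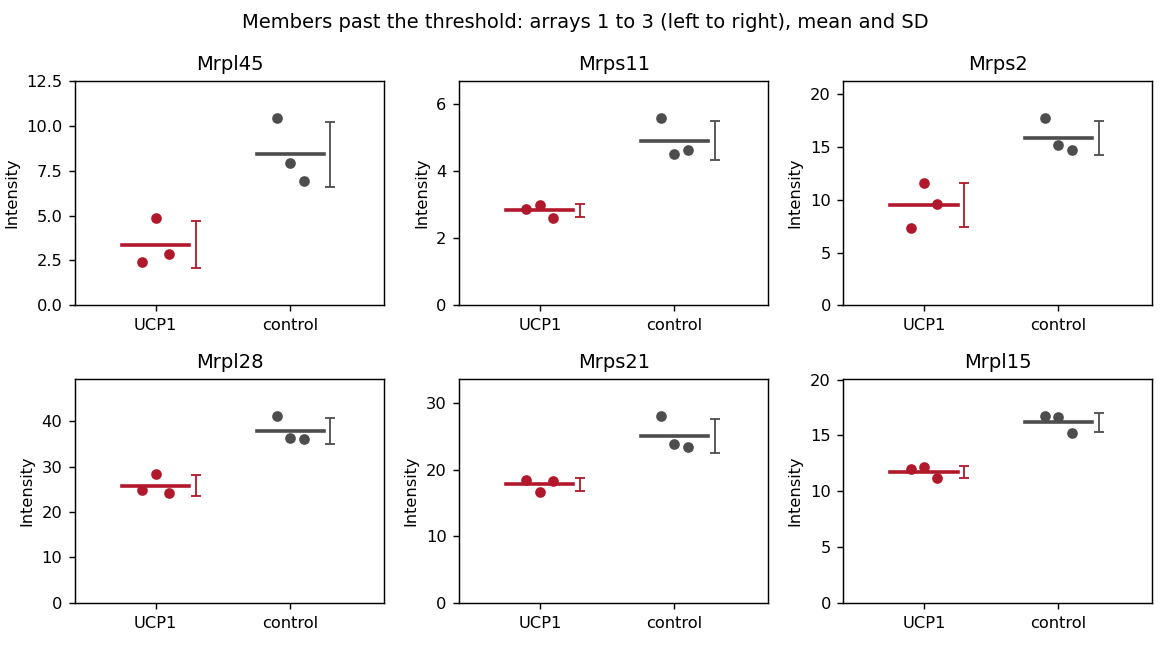
Intensity (linear scale, relative to an array median near 1) of the 6 members past the threshold on arrays 1 to 3 of each group, with the mean as a line and the SD as a bar beside it. In each panel the 3 UCP1 arrays lie below the 3 controls, from Mrpl45 at means of 3.38 in UCP1 and 8.43 in controls to Mrpl15 at 11.8 in UCP1 and 16.2 in controls.

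Of the members with well known roles or disease links, none of the following large subunit genes passed the threshold. Mrpl12, the stalk protein that recruits translation factors and also binds the mitochondrial RNA polymerase, read 172, 129 and 112 in UCP1 and 166, 162 and 150 in controls. UCP1 1 was the highest of all 6 arrays, and the difference was -0.23 ± 0.18 (SE), or 0.05 after quantile normalization. Mrpl3, a counterpart of bacterial L3 in which human mutations cause cardiomyopathy, read 44.4, 27.7 and 30.7 in UCP1 and 44.1, 38.5 and 48.3 in controls. Its UCP1 1 value lay inside the control range. Mrpl44, which has an RNase III fold and is also tied to human cardiomyopathy, was measured at -0.21 ± 0.13 (SE). Mrpl58, a peptidyl-tRNA hydrolase that frees stalled ribosomes, read 27.2, 23.0 and 24.9 in UCP1 and 29.1, 27.5 and 32.0 in controls. Its groups were separated, but by little, with a difference of -0.24 ± 0.12 (SE, limma, adjusted p = 0.341).

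The same holds for 5 small subunit genes. Mrps12, the counterpart of the bacterial decoding protein S12, read 78.3, 56.6 and 60.0 in UCP1 and 75.2, 75.5 and 79.3 in controls. Its UCP1 1 value was among the controls and the other 2 UCP1 arrays were below them. Its second probe went the same way, at -0.23 ± 0.14 (SE) against -0.25 ± 0.15 on the first. Mrps22, mutated in a human respiratory chain disorder, read 76.6, 46.7 and 54.6 in UCP1 and 67.8, 68.8 and 69.2 in controls, so that UCP1 1 was the highest array and UCP1 2 the lowest. Mrps16, mutated in a similar human disorder, read 93.5, 79.3 and 77.3 in UCP1 and 112, 98.4 and 103 in controls. All 3 UCP1 values lay below the controls, at a difference of -0.33 ± 0.14 (SE, limma, adjusted p = 0.258). Mrps34, linked to Leigh syndrome in humans, read 1.42, 1.50 and 1.42 in UCP1 and 3.13, 2.28 and 1.66 in controls. The controls were more spread than the UCP1 arrays, and the difference of -0.66 ± 0.20 (SE) did not pass (limma, adjusted p = 0.11). It was -0.88 without control 3 (adjusted p = 0.0396) and -0.43 without control 1 (adjusted p = 0.355). Mrps5, the counterpart of bacterial S5, was close to the array median at 0.844, 0.986 and 0.856 in UCP1 and 1.72, 1.19 and 1.03 in controls, a difference of -0.52 ± 0.21 (SE) that was -0.30 without control 1.

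**Figure D4:**
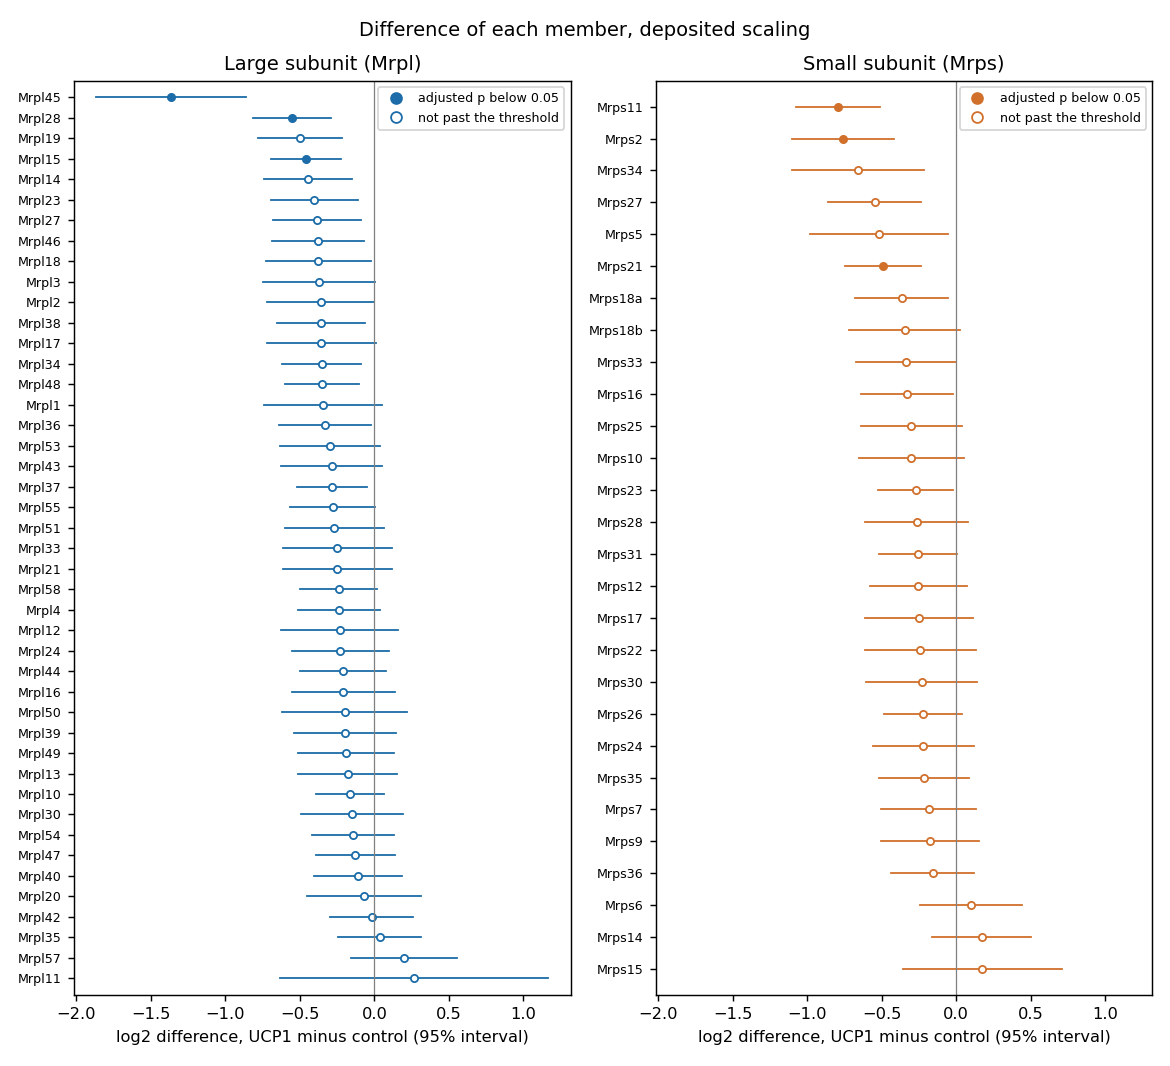
Log2 difference (UCP1 minus control, deposited scaling) of each of the 72 members with its 95% interval from limma, large subunit left and small subunit right, filled where the adjusted p was below 0.05. Points run from -1.36 for Mrpl45 to 0.27 for Mrpl11, and 66 of them lie below 0.

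There were 6 members above 0 and none passed. Mrpl11, part of the base of the factor-binding stalk, read 5.12, 6.65 and 5.99 in UCP1 and 8.56, 1.93 and 7.10 in controls. Control 2 alone lay below the UCP1 arrays, and the difference of 0.27 ± 0.41 (SE) was -0.41 without it. Mrps15, the counterpart of bacterial S15, showed the same control: 144, 103 and 119 in UCP1 and 134, 68.4 and 134 in controls. Its difference was 0.18 ± 0.25 (SE), and -0.15 without control 2. Mrps6 read 126, 102 and 97.5 in UCP1 and 114, 94.3 and 94.0 in controls, a difference of 0.10 ± 0.16 (SE) in the deposited scaling. Mrps14, Mrpl57 and Mrpl35 were measured at 0.17, 0.20 and 0.04, and Mrpl42 at -0.02, or 0.12 after quantile normalization.

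Symbols do not follow the structure throughout. Mrps18a and Mrps30 are named for the small subunit but sit in the large one, and Mrps36 is a part of the 2-oxoglutarate dehydrogenase complex of the tricarboxylic acid cycle. Mrps30 was measured at -0.23 ± 0.17 and Mrps36 at -0.16 ± 0.13 (SE). Without UCP1 2 the difference of Mrps30 was -0.0014, and after quantile normalization that of Mrps36 was 0.06. Mrps18a and Mrps18b, which descend from the gene of 1 bacterial protein, were close to each other at -0.37 ± 0.14 and -0.34 ± 0.17 (SE), though they serve different subunits. Neither passed the threshold. The 46 measured proteins of the large subunit by structure had a median of -0.26 with 3 called lower, and the 25 of the small subunit a median of -0.27 with 3 called lower. By class, 5 of 41 members with a bacterial counterpart were called lower (12.2%), at a median of -0.25. Of 30 mitochondria-specific members 1 was (3.33%), at a median of -0.27, where 2.92% of all genes were called lower. Mrps18a and Mrps18b were counted as mitochondria-specific despite their descent. Differences between these groups of members were not tested.

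More than 1 probe was present for 11 members, and 4 of these had probes of opposite sign. The second probes of Mrpl47, Mrps33 and Mrps14 and the third of Mrpl21 were much dimmer than those used, with adjusted p from 0.497 to 0.904. The dim Mrpl47 probe included a reading below 0 on control 1. Mrps7, a counterpart of bacterial S7, differed more between its probes: the brighter gave -0.19 ± 0.14 (SE), and the dimmer -0.41 ± 0.14, at 5.61, 5.57 and 5.62 in UCP1 and 7.84, 8.69 and 6.07 in controls. Neither passed. Among the brightest members, with Mrps18b, Mrps15 and Mrpl12, was Mrpl17, at 177, 139 and 130 in UCP1 and 188, 186 and 192 in controls (-0.36 ± 0.17, SE). Its groups were separated but it did not pass.

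Other proteins of mitochondrial translation were read from lists of their own. Of 14 measured translation factors 1 was called lower (7.14%, where 2.92% of all genes were) and 0 higher, with a median of -0.15. Mtif2, the initiation factor that brings the first transfer RNA to the ribosome, read 1.29, 2.30 and 1.65 in UCP1 and 2.97, 3.02 and 2.85 in controls. It fell by 0.80 on the log2 scale (SE 0.19, limma, adjusted p = 0.0473), a call absent after quantile normalization (0.0921) and in 5 of the fits without 1 array (0.0627 to 0.215). Averaged over all its probes the difference was -0.47 (adjusted p = 0.335). Tufm, the elongation factor Tu, was measured at -0.20 ± 0.14 (SE). After quantile normalization the factors' median was 0.03, opposite in sign.

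Of 27 genes of mitoribosome assembly and ribosomal RNA processing 4 were called lower (14.8%) and 0 higher, with a median of -0.23. Of all genes 2.92% were called lower, and 4.67% of those at or above the median probe. In the list 21 genes lay below 0 and 6 above. The groups were separated downward in 11 (17.1% of all genes) and upward in 2 (8.08% of all genes). Nsun4 had the largest difference of the list, and it was upward. Its means were 1.85 in UCP1 and 0.910 in controls, a difference of 0.98 ± 0.29 (SE, limma, adjusted p = 0.092). Lrpprc, counted in this list although it stabilises mitochondrial messenger RNAs, read 3.34, 5.77 and 5.24 in UCP1 and 9.71, 8.88 and 8.31 in controls. Its groups were well apart, and it fell by 0.94 (SE 0.18, limma, adjusted p = 0.0199). Rbfa, a small subunit maturation factor, fell by 0.55, Ngrn, which is needed for the large ribosomal RNA, fell by 0.53 and Ddx28, a helicase of large subunit assembly, fell by 0.45 (limma, adjusted p = 0.0393, 0.0287 and 0.0475). After quantile normalization 0 of the 27 passed, with adjusted p of 0.0616 for Lrpprc, 0.102 for Rbfa, 0.0798 for Ngrn and 0.0663 for Ddx28. None of the 4 passed without UCP1 3, control 1 or control 2, and of the 4 only Lrpprc did without control 3 (0.0377).

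Mitoribosomal proteins with other names were also measured, and 0 of 4 passed. At an unadjusted p under 0.05, 3 were lower, where 15.1% of all genes were. Gadd45gip1, a large subunit protein also known as CRIF1, read 24.4, 16.9 and 20.9 in UCP1 and 29.9, 26.9 and 30.4 in controls (-0.50 ± 0.14, SE, limma, adjusted p = 0.0824). Ptcd3, a small subunit protein, was measured at -0.42 ± 0.12 (SE, adjusted p = 0.0979). The groups were separated downward in 3 of the 4, where 17.1% of all genes were. When array UCP1 1 was left out 3 of the 4 were called lower, where 6.62% of all genes were.

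For scale, 1 of 59 cytosolic ribosomal protein genes was called lower (1.69%), with a median of -0.21 that turned to 0.13 after quantile normalization. Of 76 nuclear oxidative phosphorylation subunits 4 were called lower (5.26%), with medians of -0.36 and -0.06 in the same 2 scalings. In the deposited scaling 97.4% of these subunits, 86.4% of the cytosolic ribosomal proteins and 91.7% of the members lay below 0. After quantile normalization these shares were 60.5%, 23.7% and 75%. The groups were separated downward in 40 of the 76 subunits, 15 of the 59 cytosolic genes and 25 of the 72 members (17.1% of all genes). At an unadjusted p under 0.05 (limma), 32, 7 and 24 were lower (15.1% of all genes). The share called lower was 2.92% over all genes and 4.67% over those at or above the median probe. The differences between these sets and the mitochondrial ribosomal proteins were not tested.

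Members shared features of sequence and position that the selection did not use. RefSeq windows were matched for 63 of the 72 members. There were 4 motifs searched in them on both strands, each as 1 exact string. GCATGCGC is a form of the core bound by NRF1, and CCGGAAG is of the ETS family that includes GABPA. AAGATGGC is of YY1 and GGGCGG of the SP and KLF family. None of these letter strings holds another. The NRF1 string was found for 5 members (7.94%, against 3.05% of 27025 genes), the ETS string for 23 (36.5% against 9.93%), the YY1 string for 11 (17.5% against 3.19%) and the SP/KLF string for 32 (50.8% against 38.2%). Base composition was not matched between the members and all genes. Of the 5 called members with a window, Mrps11 held the YY1 string on the reverse strand, starting 107 bases before its start, and the SP/KLF string, and Mrps21 held the ETS string. The windows of Mrpl45 and Mrps2 printed above hold none of the 4 exact strings. Variants of these sites were not searched, so the windows may still hold sites for these factors.

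Many members start beside another gene that runs the opposite way. A head-to-head neighbour, with starts at most 1000 bases apart, was found for 23 of 63 members (36.5%), against 12.3% of all genes with a window. Mrps11 and Mrpl46 are such a pair, with starts 42 bases apart, so the window of Mrps11 printed above also holds the start of Mrpl46. Mrpl46, a large subunit protein, read 9.22, 6.72 and 6.85 in UCP1 and 10.0, 8.80 and 10.5 in controls. Its UCP1 1 value lay inside the control range. The difference was -0.38 ± 0.14 (SE, limma, adjusted p = 0.185), beside -0.79 for Mrps11, and the difference within the pair was not tested.

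Of 18 measured neighbours outside the family 15 were below 0, with a median of -0.35. Over all genes 60.1% were below 0 at a median of -0.08, and over those at or above the median probe 67% at -0.11. None of the neighbours passed the threshold, where 2.92% of all genes were called lower. They were read in the deposited scaling only, and whether they moved with the members was not tested. Several neighbours serve mitochondria themselves. Twnk, the helicase of mitochondrial DNA replication, faces Mrpl43 and was measured at -0.48 ± 0.13 (SE, adjusted p = 0.0731), beside -0.29 for Mrpl43. Ndufb5, a complex I subunit, faces Mrpl47 at -0.27 ± 0.15, beside -0.13. Sars2, the mitochondrial seryl-tRNA synthetase, faces Mrps12, but its probe was dim (means of 0.154 in UCP1 and 0.212 in controls). Tcp1, a subunit of the cytosolic chaperonin, faces Mrpl18, and both stood at -0.38.

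**Figure D5:**
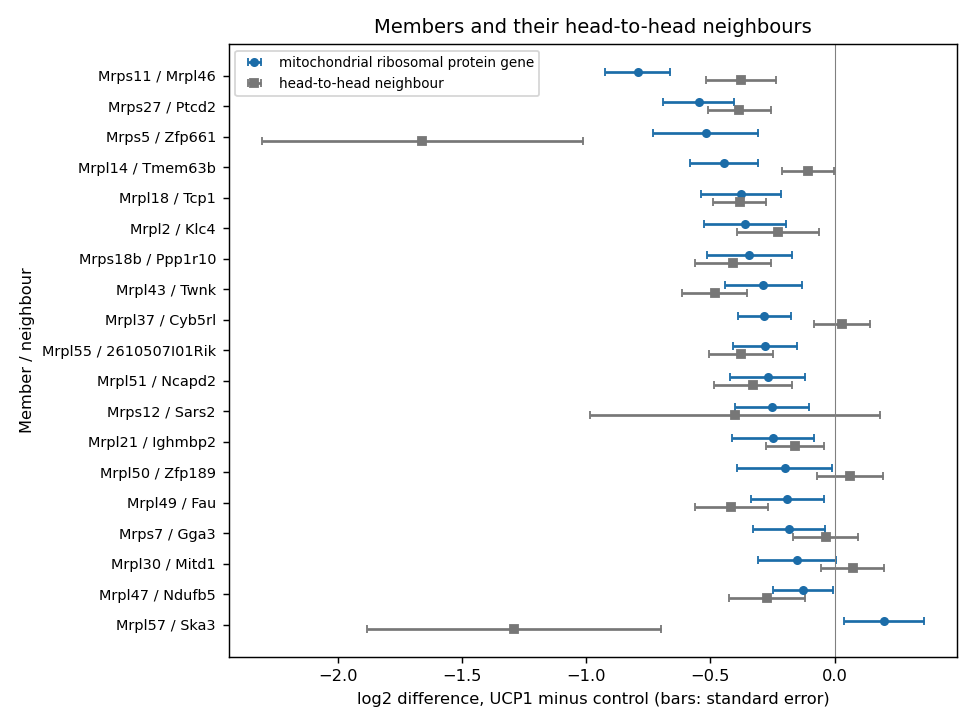
Log2 difference (UCP1 minus control, deposited scaling) of each member and of its measured head-to-head neighbour, with standard errors, sorted by the member's difference from Mrps11 at the top to Mrpl57. The neighbours Zfp661 and Ska3, at -1.66 and -1.29, have the widest errors together with Sars2; their mean intensities were 0.337 in UCP1 and 1.18 in controls for Zfp661, and 0.136 in UCP1 and 0.298 in controls for Ska3.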

How the data were processed

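RNA of 3 UCP1 and 3 Tet-off control samples was measured on CodeLink arrays. The deposited intensity values are linear and were set by the authors to array medians near 1, as read from the values. No software, background correction or build is given in the sources used here. The code -9999 (116 to 125 probes per array) was treated as missing, and values at or below 0 (80 to 159 per array) were set to the array's smallest positive value before log2. A probe needed values on 2 arrays per group, which kept 36116 of 36227. No detection mark was used, and the number of arrays limits the precision. Groups came from the source field of the labels, since the digit ending each UCP1 title is not defined.

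All probes were fitted with limma 3.58.1 (R 4.3.3, lmFit, eBayes with an intensity trend, two-sided), with Benjamini-Hochberg adjustment over all tested probes and a threshold of 0.05. Tested on simulated data of 36062 probes, the fit recovered 10% of 50 probes lowered by 0.5 (log2) and 86% of 50 lowered by 1. The lowered probes all lay at or above the median level. They were fewer than the 1021 probes called in the real data, so recovery there may differ. Symbols came from the platform annotation, and all 72 members matched RefSeq names. The members, gene lists and tests were chosen with earlier results of these data known. Members named are those past the threshold, the 4 lowest and 4 highest and the 2 brightest of each subunit, those whose probes disagree in sign, and a list of well studied ones. From each other list, called members or the 2 with the smallest p are named, and any other gene was chosen after its values were seen. Motifs and head-to-head neighbours were described with Python 3.11.15.

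Alternatives were an offset of 0.125 before log2, quantile and cyclic loess normalization, the brighter probes (at or above the median level), eBayes without trend or robust, an ordinary test per probe, the mean of a gene's probes, the replicate number as a block, and each array left out. The labels do not tie equal numbers together: deviations of same-numbered arrays from their group means correlated at -0.24, -0.01 and 0.10 over 18058 brighter probes.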

Additional observations from a re-analysis of the deposited data

How the results depend on the processing

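Fits that changed only the variance model, the block or the probes adjusted over could not move the members' median, which stayed at -0.26. It was below 0 with the offset, quantile and cyclic loess normalization, the mean of a gene's probes and each array left out. Over these it ran from -0.40 without UCP1 1 to -0.08 after quantile normalization. The medians of all members and of the small subunit were both -0.078 after quantile normalization. The count of called members, 6 in the deposited scaling, was 3 after quantile normalization (2 lower and 1 higher) and 2 after cyclic loess. It was 3 with the replicate block (2.23% of all genes lower), 0 without the intensity trend, and 0 with an ordinary test per probe. Those last fits called 0 and 3 probes on the whole array, so their counts say nothing of the members, of which 14 and 18 were lower at an unadjusted p under 0.05. On the brighter probes alone it was 9 (10.5% of genes lower), and 10 without the trend (9.64% of genes lower), each of 72 members. Leaving out 1 array, where 0.378% to 6.62% of all genes were called lower, gave 0 to 25 members, 0 to 2 translation factors, 0 to 7 assembly factors and 0 to 3 of the other mitoribosomal proteins. The 1 called translation factor became 0 under quantile normalization, cyclic loess, no trend, the ordinary test and the mean of all probes. The 4 called assembly factors, all lower, became 0 under quantile normalization, cyclic loess, no trend and the ordinary test. With robust eBayes there were 7, all lower, where 3.57% of all genes were called lower. On the brighter probes there were 10, 9 lower and 1 higher, where 10.5% of genes were lower and 3.07% higher. On those probes without the trend there were 8, 7 lower and 1 higher, where 9.64% of genes were lower and 2.88% higher. The other mitoribosomal proteins had 1 call in both fits of the brighter probes. Ucp1 stayed at 3.00 but missed the threshold without the trend (adjusted p = 0.0855) and with the ordinary test (0.132). For the named genes, 85 values lost and 21 gained a call, and 518 kept their side of the threshold. Some of the 518 changed sign without a call, such as Mrpl12 after quantile normalization. The causes were not tested. Under the replicate block Mrpl15, Mrpl28 and Mrps21 lost their calls, as did Rbfa and Ddx28, and the assembly factors had 3 calls, 2 lower and 1 higher. It changed no call of the translation factors or Ucp1. With 3 arrays per group, dim probes and differences near 0.5 are at the limit of what can be called.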
